A study of Homo sapiens with 8 samples.

Results

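The 7 genes described here encode the core of the machinery through which small RNAs silence messages in human cells. They are the 4 Argonaute genes (AGO1, AGO2, AGO3 and AGO4) and the 3 TNRC6 genes (TNRC6A, TNRC6B and TNRC6C), taken by gene symbol from 17179 symbols in the count files. All 7 had reads in every library, each as a single gene and transcript feature, and all 7 passed the filter on low counts, which kept 13306 genes.

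An Argonaute protein holds a microRNA (miRNA) or the guide strand of a short hairpin RNA (shRNA) and pairs it with target messages. AGO2 is the family member best known for cutting a fully matched target, while all 4 can repress without cutting. TNRC6 proteins, also called GW182 proteins, bind Argonaute through glycine-tryptophan repeats and recruit the deadenylases that shorten the poly(A) tail, so that the message is repressed and decays.

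Ribosome profiling sequences the short pieces of message that ribosomes shield from nuclease, so a gene's count reports ribosome footprints on its message. The cells were 293T, a human embryonic kidney line carrying the SV40 large T antigen, in 4 groups of 2 libraries. Cells given a non-cleaving shRNA named shNBD1 were compared with a control for shRNA (titled Scr), and cells given miRNA inhibitors with a control of their own (titled NC control). The labels name neither the inhibited miRNAs nor the duration of treatment, the dose or the way the small RNAs were delivered, and they give no hairpin sequence. The design text asks about translation under both treatments. RNA abundance was not analysed here, and a change in footprints can therefore be a change in message level, in ribosomes per message or in both.

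Total counts ran from 11218980 to 19854218 per library. Every library held a row named for an NBD1 reporter that the labels do not explain. It averaged 9105 ± 33.2 CPM (counts scaled to a common library size, mean ± SD, n = 2) for the shRNA control and 7136 ± 137 CPM under shNBD1. Of 7 genes listed as markers of 293T, 6 had reads: VIM lay between 3063 and 6172 CPM, KRT8 between 978 and 1640 CPM, and PAX2 and NEFM were low, at most 3.44 CPM. Summed, these markers reached 5414 and 5448 CPM for the shRNA control and 8504 and 8833 CPM under shNBD1, and 4841 and 5840 CPM for the inhibitor control against 5288 and 5863 CPM under the inhibitors. VIM, KRT8, KRT18 and CDH2, 4 of the 6 tested, passed the test as higher with shNBD1, where 9.18% of all genes were called higher. NEFM (log2 fold change -0.52 ± 0.35, edgeR adjusted p = 0.331) and PAX2 (-0.05 ± 0.25, 0.912) had values below 0 and did not pass. VIM made up most of the sum in every library. Of 9 markers of other cell types 5 passed the filter, while PTPRC, CD3E, ALB and HBB had at most 6 reads in any library. CD68, a macrophage marker, was lower with shNBD1 (-0.51 ± 0.12, edgeR adjusted p = 0.017). Their summed level was 370 to 400 CPM in the shRNA control, 429 to 436 CPM with shNBD1, 563 to 570 CPM in the inhibitor control and 457 to 502 CPM with the inhibitors, most of it from ACTA2, and its part in the results was not tested. The labels do not say whether the 2 libraries of a group are separate cultures, and every p-value here covers library-to-library spread, possibly only technical. Replicates differed more in the inhibitor arm, where the median SD between replicates over genes was 0.112 and 0.123 on the log2 scale, than in the shRNA arm, at 0.0599 and 0.0722.

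AGO4, AGO1 and AGO3 lie side by side on chromosome 1 (GRCh38.p14, RefSeq). AGO4 spans 35807636 to 35857890, AGO1 35869761 to 35930532 and AGO3 35930718 to 36072500, which leaves 185 bases between AGO1 and AGO3. TNRC6A lies on chromosome 16 (24610205 to 24826218), TNRC6B on chromosome 22 (40044834 to 40335808) and TNRC6C on chromosome 17 (77957557 to 78108835).

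The upstream sequences of AGO1, TNRC6A and TNRC6C are shown because these are the members whose footprints passed the test under a treatment. Each is the 250 bases before a RefSeq start site, 5′ to 3′ on the plus strand of GRCh38.p14. Capitals mark matches, on either strand, to CCAAT (the CCAAT box), to GGGCGG (the GC box), to TATAAA (the TATA box), to CACGTG (an E-box) and to CTTCCGG (an ETS core), short words found in many promoters. The RefSeq table held 9 windows for 6 of the 7 genes, 4 of them for TNRC6C, of which the window with the highest GC share is shown. All 3 windows shown lie inside the full span of their gene, before a start site downstream of the first.
AGO1, chr1:35882959-35883208: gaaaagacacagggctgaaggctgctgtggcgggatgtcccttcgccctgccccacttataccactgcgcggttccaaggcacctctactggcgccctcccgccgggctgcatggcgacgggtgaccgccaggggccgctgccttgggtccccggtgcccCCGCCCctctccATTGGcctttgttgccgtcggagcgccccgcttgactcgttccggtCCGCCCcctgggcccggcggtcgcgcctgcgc
TNRC6A, chr16:24729401-24729650: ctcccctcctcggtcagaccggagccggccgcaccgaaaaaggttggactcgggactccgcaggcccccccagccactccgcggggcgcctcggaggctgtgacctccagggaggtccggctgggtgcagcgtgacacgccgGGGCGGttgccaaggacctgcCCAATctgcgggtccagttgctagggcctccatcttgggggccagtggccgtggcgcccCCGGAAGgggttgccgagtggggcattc
TNRC6C, chr17:77958453-77958702: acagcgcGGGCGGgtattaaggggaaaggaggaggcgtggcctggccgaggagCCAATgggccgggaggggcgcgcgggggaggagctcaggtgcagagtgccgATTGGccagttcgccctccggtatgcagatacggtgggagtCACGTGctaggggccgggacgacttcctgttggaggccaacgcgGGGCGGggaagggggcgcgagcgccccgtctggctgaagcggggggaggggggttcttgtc
AGO1 had 1 match to CCAAT and 2 to GGGCGG, TNRC6A had 1 to each and 1 to CTTCCGG, and the TNRC6C window had 2 to CCAAT, 2 to GGGCGG and 1 to CACGTG. Over all 35116 windows of this length in the table, CCAAT was present in 32.0%, GGGCGG in 42.6%, TATAAA in 10.7%, CACGTG in 6.35% and CTTCCGG in 8.52%. None of the 3 windows shown held TATAAA. GC content was 71.6% for AGO1 and 71.6% for TNRC6A, against a median of 58.0% over all windows. It was 70.4% for the TNRC6C window, which was chosen for this, and 46.0%, 39.2% and 46.0% for the other TNRC6C windows, which held 1 match in all, to GGGCGG. These matches describe the letters only, and the footprint counts hold no measurement of promoter use.

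With shNBD1, AGO1 and TNRC6C rose and no member fell. Both increases were about 1.32-fold, and the other 5 members did not pass the test. Values below are CPM with library sizes scaled by TMM, given per library in the order of replicates 1 and 2, and fold changes are log2 values ± SE from edgeR's quasi-likelihood test over all 8 libraries, with p-values adjusted over 13306 genes.

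AGO1, which carries miRNAs and is not known as a strong cutter, stood at 40.0 and 37.9 CPM in the shRNA control and at 49.6 and 53.5 CPM with shNBD1. Both shNBD1 libraries lay above both control libraries. The log2 fold change was 0.40 ± 0.09 (edgeR adjusted p = 0.0118).

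TNRC6C, a scaffold between Argonaute and the deadenylases, stood at 21.8 and 20.4 CPM in the control and at 27.2 and 28.6 CPM with shNBD1. Its groups did not overlap either, and its log2 fold change was 0.40 ± 0.09 (edgeR adjusted p = 0.0139). These 2 calls of 7 compare with 9.18% of all genes called higher in this comparison. Fitted to the shRNA arm by itself (4 libraries), AGO1 and TNRC6C passed as higher (edgeR adjusted p = 3.25e-05 and 0.000606). That fit called 5314 genes, 2725 higher and 2589 lower, so passing it was common. Neither call held in every fit that left out a library of the comparison: without shRNA control replicate 1 the adjusted p was 0.0843 for AGO1 and 0.084 for TNRC6C, without shRNA control replicate 2 it was 0.117 and 0.131, without shNBD1 replicate 1 TNRC6C had 0.0567, and without shNBD1 replicate 2 they had 0.132 and 0.130.

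AGO2 (chromosome 8, 140520156 to 140642313, GRCh38.p14) stood at 39.4 and 42.5 CPM in the shRNA control and at 37.8 and 35.5 CPM with shNBD1. Its libraries were lower with the hairpin, but the log2 fold change of -0.16 ± 0.13 did not pass (edgeR adjusted p = 0.422, 95% interval -0.45 to 0.13). AGO3 stood at 24.6 and 22.3 CPM in the control and 20.6 and 20.8 CPM with shNBD1, with a log2 fold change of -0.18 ± 0.10 (edgeR adjusted p = 0.23, 95% interval -0.41 to 0.04).
For AGO2 and AGO3 the groups did not overlap, which was so for 34.3% of all genes in the lower direction.

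AGO4 had the fewest reads of the 7, from 101 to 210 per library, for which counting error alone gives an SD of 6.90% to 9.95%. It stood at 8.77 and 10.1 CPM in the control and at 8.96 and 8.85 CPM with shNBD1. Its groups overlapped, and the 95% interval of its log2 fold change ran from -0.51 to 0.35, which spans changes in both directions.

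TNRC6A, a scaffold like TNRC6C, stood at 42.0 and 44.9 CPM in the control and 48.7 and 48.0 CPM with shNBD1 (log2 fold change 0.16 ± 0.09, edgeR adjusted p = 0.244). TNRC6B, the third scaffold, stood at 66.5 and 69.0 CPM and at 63.4 and 66.2 CPM (-0.06 ± 0.09, edgeR adjusted p = 0.669). In this comparison 3 members (AGO1, TNRC6A and TNRC6C) had both treated libraries above both controls and 3 (AGO2, AGO3 and TNRC6B) had both below. Over all genes these shares were 34.7% and 34.3%, so the number of members that separated was not far from the background. The median log2 fold change of the 7 was -0.06, against 0.00 over all genes.

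**Figure D1:**
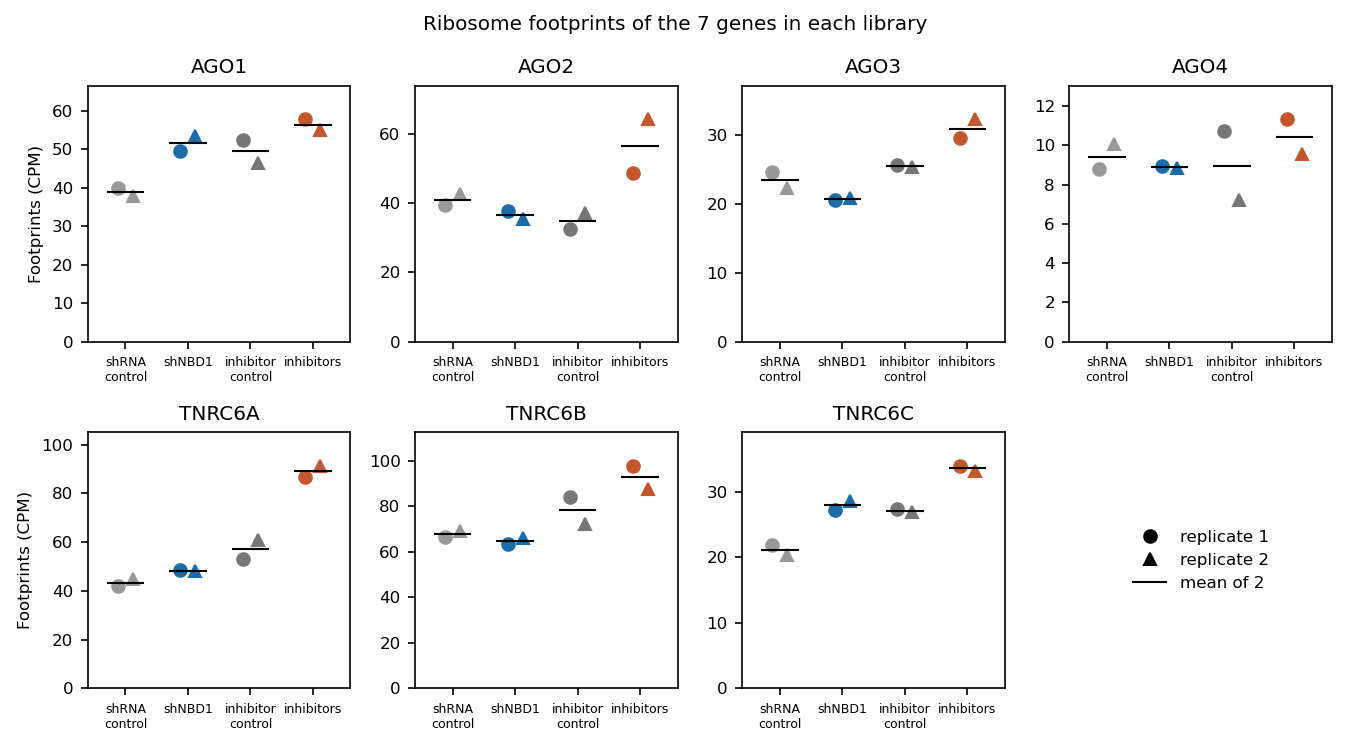
Ribosome footprints of each gene in CPM (vertical axis, from 0) in the 8 libraries, by group. Circles are replicate 1, triangles replicate 2 and lines the mean of 2. TNRC6A is highest in both inhibitor libraries (86.9 and 91.3 CPM), and AGO2 shows the widest gap between its inhibitor libraries (48.6 and 64.1 CPM).

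With the miRNA inhibitors, TNRC6A rose 1.56-fold and was the only member to pass the test in the reported fit. AGO2 had a slightly larger value, 1.61-fold, that did not pass. All 7 fold changes were above 0, with a median of 0.27 on the log2 scale against 0.01 over all genes, of which 51.5% were above 0.

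TNRC6A stood at 53.3 and 61.1 CPM in the inhibitor control, while the inhibitor libraries had 86.9 and 91.3 CPM. The groups were far apart relative to the gap between replicates. The log2 fold change was 0.64 ± 0.08 (edgeR adjusted p = 0.028), the sixth smallest p of 13306 genes, and 0.0376% of all genes were called higher in this comparison. The call rests on the spread shared with the other arm: fitted to the inhibitor arm by itself (4 libraries), the log2 fold change was 0.64 but the edgeR adjusted p was 0.568, and no gene was called. Without inhibitor control replicate 1 the value was 0.54 (adjusted p = 0.0866), without inhibitors replicate 2 it was 0.59 (0.0799), and without any single library of the shRNA arm the adjusted p lay between 0.0972 and 0.128.

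AGO2, the cutting Argonaute, stood at 32.4 and 37.2 CPM in the inhibitor control, while the inhibitor libraries had 48.6 and 64.1 CPM. Both treated libraries were above both controls, and inhibitors replicate 2 was the highest of all 8 libraries. The log2 fold change was 0.69 ± 0.13 (edgeR adjusted p = 0.0803, 95% interval 0.41 to 0.97). Inhibitors replicate 2 moved this value most: without it the log2 fold change was 0.47 (adjusted p = 0.278), and without inhibitors replicate 1 it was 0.87 (adjusted p = 0.00234). The AGO2 value passed with DESeq2 (adjusted p = 0.00115) and with no filter on low counts (edgeR adjusted p = 0.0103). It did not pass with upper-quartile scaling (edgeR adjusted p = 0.0863). Fitted to the inhibitor arm by itself (4 libraries), the log2 fold change was 0.69 and the edgeR adjusted p was 0.568. Inhibitors replicate 2 was also the library of lowest depth, and features named ZNF354B and ST8SIA1 took the largest share of its reads, 11.3% against 5.99% to 9.99% elsewhere. With those features removed before scaling the AGO2 value was 0.68 (edgeR adjusted p = 0.0788).

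The other Argonautes had smaller values that did not pass. AGO1 stood at 52.5 and 46.6 CPM in the inhibitor control, while the inhibitor libraries had 57.8 and 54.9 CPM (log2 fold change 0.19 ± 0.09, edgeR adjusted p = 0.31). AGO3 stood at 25.6 and 25.4 CPM and at 29.5 and 32.2 CPM (0.27 ± 0.10, edgeR adjusted p = 0.206).
Neither overlapped its control. AGO4 stood at 10.7 and 7.20 CPM in the control and 11.3 and 9.55 CPM with the inhibitors, groups that overlapped (0.23 ± 0.19, edgeR adjusted p = 0.555).

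The other TNRC6 genes were also higher without passing. TNRC6C stood at 27.3 and 26.9 CPM in the control and 33.9 and 33.2 CPM with the inhibitors (log2 fold change 0.31 ± 0.09, edgeR adjusted p = 0.149). TNRC6B stood at 84.2 and 72.1 CPM and at 97.8 and 87.6 CPM (0.25 ± 0.09, edgeR adjusted p = 0.218). In all 6 of the 7 members, AGO4 excepted, had both treated libraries above both controls, while 20.5% of all genes did. With inhibitor control replicate 1 and inhibitors replicate 2 both left out, all 7 log2 fold changes stayed above 0. They were 0.31 (AGO1), 0.38 (AGO2), 0.22 (AGO3), 0.65 (AGO4), 0.51 (TNRC6A), 0.44 (TNRC6B) and 0.33 (TNRC6C). That fit sets single libraries of different number against each other and assumes that they vary like the shRNA arm.

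**Figure D2:**
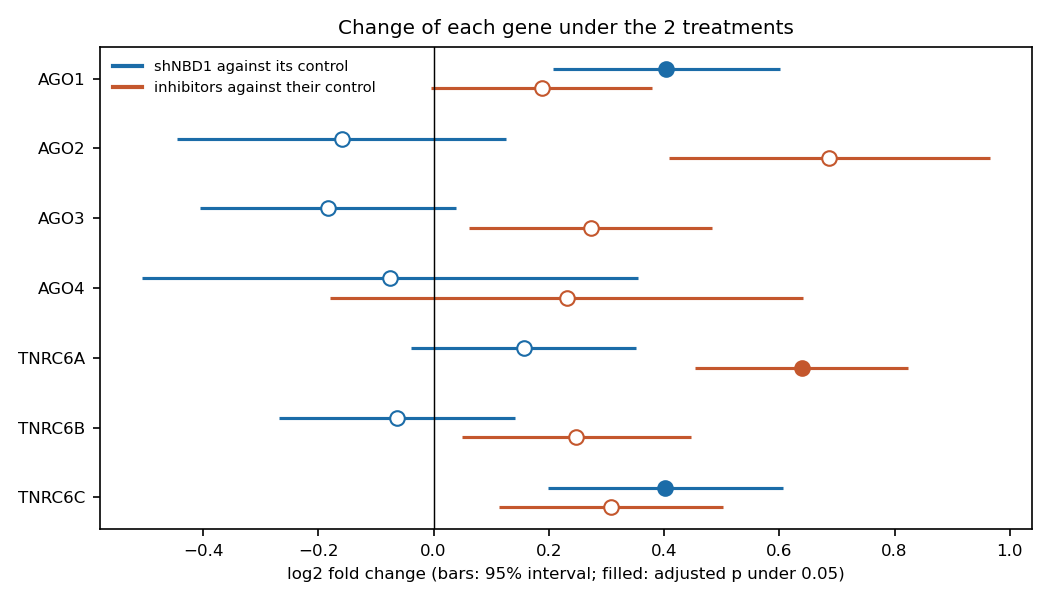
The log2 fold change of each gene (horizontal axis) under shNBD1 (blue) and under the inhibitors (orange), each against its own control, with bars for the 95% interval of the fit. Filled points passed an adjusted p of 0.05: AGO1 and TNRC6C with shNBD1 at 0.40, and TNRC6A with the inhibitors at 0.64.

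**Figure D3:**
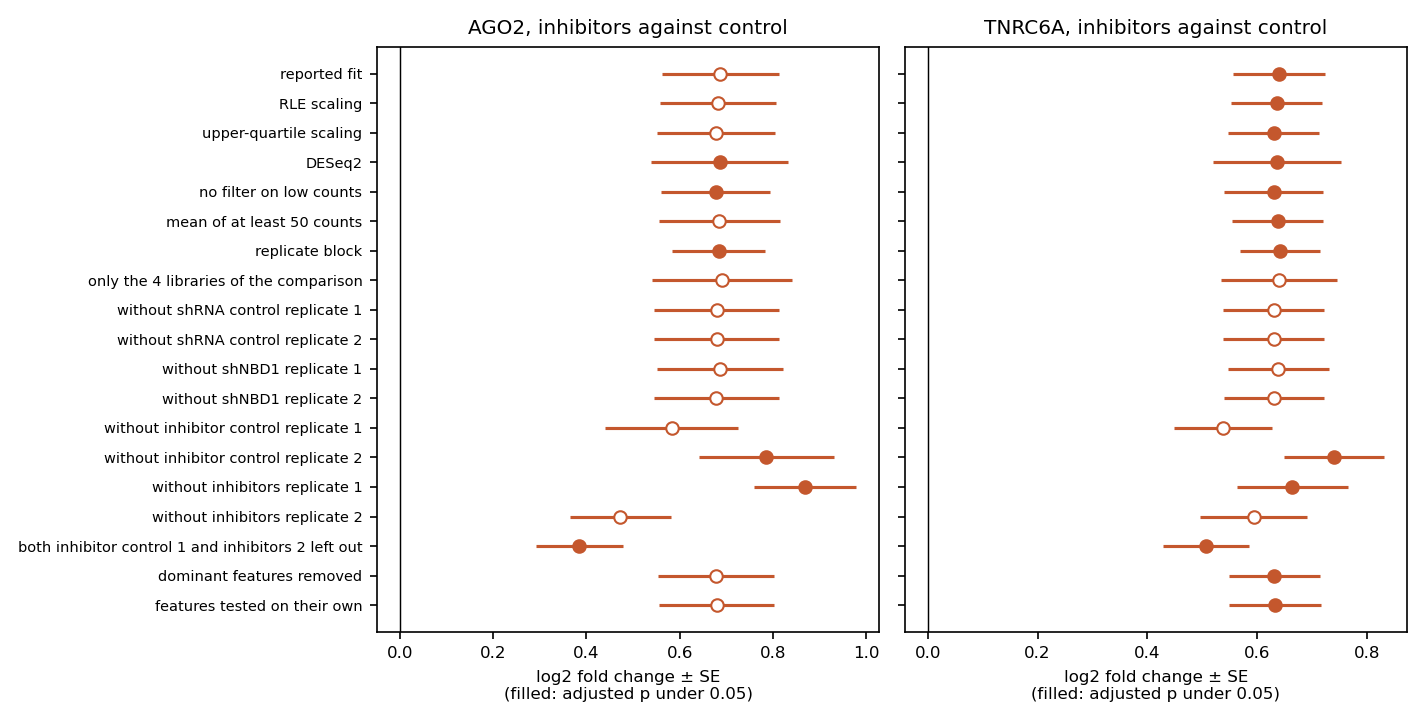
The log2 fold change ± SE of AGO2 and TNRC6A with the inhibitors (horizontal axis) in the reported fit and under 18 other settings (rows). Filled points passed an adjusted p of 0.05. TNRC6A stayed between 0.51 and 0.74 and AGO2 between 0.38 and 0.87.

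In the reported fit, AGO2 and TNRC6A passed the test of a difference between the 2 treatment effects. For AGO2 the shNBD1 effect minus the inhibitor effect was -0.85 ± 0.18 on the log2 scale (edgeR adjusted p = 0.0205), from -0.16 with the hairpin and 0.69 with the inhibitors. For TNRC6A the difference was -0.48 ± 0.12 (edgeR adjusted p = 0.0392), from 0.16 and 0.64. These 2 of 7 compare with 3.96% of all genes called lower in this test. Both calls were lost without any single library of the shRNA arm (adjusted p from 0.0715 to 0.182). The TNRC6A call was also lost with DESeq2 (adjusted p = 0.0621), without inhibitor control replicate 1 (edgeR adjusted p = 0.074) and without inhibitors replicate 2 (edgeR adjusted p = 0.0662). The AGO2 difference was -0.54 (edgeR adjusted p = 0.00144) with both of those libraries left out.

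The remaining 5 members did not pass this test. AGO3 had a difference of -0.46 ± 0.14 (edgeR adjusted p = 0.0719), which passed with the replicate number as a block (edgeR adjusted p = 0.0429) and with inhibitor control replicate 1 and inhibitors replicate 2 both left out (0.0415), and in no other setting tried. TNRC6B had -0.31 ± 0.13 (edgeR adjusted p = 0.166) and AGO4 -0.31 ± 0.27 (0.537), which passed only with those libraries both left out (0.000383 and 0.0161). AGO1 had 0.22 ± 0.12 (edgeR adjusted p = 0.324) and TNRC6C 0.09 ± 0.13 (0.705), so the larger hairpin value of AGO1 beside its inhibitor value is not shown to differ.

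The control groups did not start from the same level. AGO1, TNRC6A and TNRC6C were lower in the shRNA control than in the inhibitor control, by -0.35 ± 0.09, -0.40 ± 0.09 and -0.36 ± 0.09 on the log2 scale (edgeR adjusted p = 0.0163, 0.00812 and 0.0155). These 3 of 7 compare with 13.6% of all genes called lower. AGO1 and TNRC6C, which rose with shNBD1, are therefore among the members that were low in the shRNA control, and both comparisons share those 2 control libraries. With shNBD1, AGO1 reached 51.6 ± 2.72 CPM, beside 49.6 ± 4.24 CPM in the inhibitor control, and TNRC6C reached 27.9 ± 0.999 CPM beside 27.1 ± 0.316 CPM. Between the same controls, CD68 was 1.51 ± 0.13 higher and ACTA2, a smooth muscle actin, -0.76 ± 0.07 in the shRNA control on the log2 scale (edgeR adjusted p = 5.70e-05 and 0.000103), and their part in these differences was not tested. The kind of control and the arm cannot be told apart. AGO1 and TNRC6C lost this call without either library of the shRNA control, and TNRC6A lost it without shRNA control replicate 1 (edgeR adjusted p = 0.0929). AGO1 also lost it without inhibitor control replicate 1 (edgeR adjusted p = 0.0774), and TNRC6C with DESeq2 (adjusted p = 0.0599). The other members had 0.23 (AGO2), -0.12 (AGO3), 0.07 (AGO4) and -0.21 (TNRC6B), none past the threshold. Of the 7, 5 were lower in both shRNA control libraries and AGO2 was higher, against 33.4% and 33.7% of all genes.

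Across the 4 groups the order of mean levels was not the same for all members. AGO1 ran from 38.9 ± 1.47 CPM in the shRNA control through the inhibitor control and shNBD1, whose ranges overlapped, to 56.4 ± 2.04 CPM with the inhibitors. AGO2 was lowest in the inhibitor control (34.8 ± 3.40 CPM) and with shNBD1 (36.6 ± 1.63 CPM), ranges that overlapped, then came the shRNA control at 40.9 ± 2.19 CPM and the inhibitors at 56.4 ± 10.9 CPM.
The order for AGO1 and AGO2 thus differed in where the shRNA control stood. AGO3 was lowest with shNBD1 (20.7 ± 0.192 CPM) and highest with the inhibitors (30.9 ± 1.94 CPM), with no overlap between neighbours. AGO4 lay between 8.90 and 10.4 CPM on average, and only shNBD1 and the inhibitors did not overlap.

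TNRC6A ran from 43.4 ± 1.99 CPM in the shRNA control through 48.4 ± 0.474 CPM with shNBD1 and 57.2 ± 5.54 CPM in the inhibitor control to 89.1 ± 3.15 CPM with the inhibitors, and no neighbours overlapped. TNRC6B ran from 64.8 ± 1.96 CPM with shNBD1 to 92.7 ± 7.21 CPM with the inhibitors, also without overlap. TNRC6C was lowest in the shRNA control (21.1 ± 1.04 CPM) and highest with the inhibitors (33.6 ± 0.532 CPM), and the other groups overlapped. The inhibitor group was thus highest for every member by its mean, with the spread of AGO4 too wide to separate it from both controls. How many of all genes separate over the 4 groups was not counted. Separation of 2 groups was common, at 34.7% higher and 34.3% lower of all genes with shNBD1. No coding lengths were used here, so levels are not ranked between genes.

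Summed over each family, footprints were higher with the inhibitors. The 4 Argonautes together stood at 112.7 ± 0.0325 CPM in the shRNA control, 117.8 ± 1.20 CPM with shNBD1, 118.8 ± 3.51 CPM in the inhibitor control and 154.1 ± 9.60 CPM with the inhibitors. The 3 TNRC6 genes stood at 132.3 ± 2.70, 141.1 ± 2.49, 162.5 ± 3.31 and 215.3 ± 4.59 CPM in the same order. Treated and control libraries did not overlap in either arm for either sum. Single genes separated upwards in 34.7% of cases with shNBD1 and 20.5% with the inhibitors, and the sums were not tested. Most of the rise with the inhibitors came from 1 member of each family. AGO2 went from 34.8 to 56.4 CPM on average, and TNRC6A from 57.2 to 89.1 CPM.

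The make-up of each family was also described by the share of a gene in its family's reads, which needs no scaling of libraries. AGO1 made up 35.5% and 33.6% of Argonaute footprints in the shRNA control and 42.5% and 45.1% with shNBD1, and AGO2 34.9% and 37.7% in the control and 32.3% and 29.9% with shNBD1. With the inhibitors the differences ran the other way. AGO2 had 33.0% and 39.9% with the inhibitors against 26.7% and 32.0% in their control, and AGO1 had 39.3% and 34.2% against 43.3% and 40.0%. TNRC6C made up 16.8% and 15.2% of TNRC6 footprints in the shRNA control and 19.5% and 20.05% with shNBD1. TNRC6A made up 39.7% and 43.1% with the inhibitors, against 32.3% and 38.2% in their control. TNRC6B had a lower share with both treatments and no overlap, from 51.0% and 51.4% to 45.5% and 46.3% with shNBD1 and from 51.1% and 45.0% to 44.7% and 41.3% with the inhibitors. Shares within a family are complementary, so these are not independent, and they come from the same counts as the fold changes. How often the shares of other genes separate in this way was not counted. With 2 libraries against 2, an exact two-sided permutation test cannot give a p below 0.333, and 13 of the 14 shares tested gave that value.

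**Figure D4:**
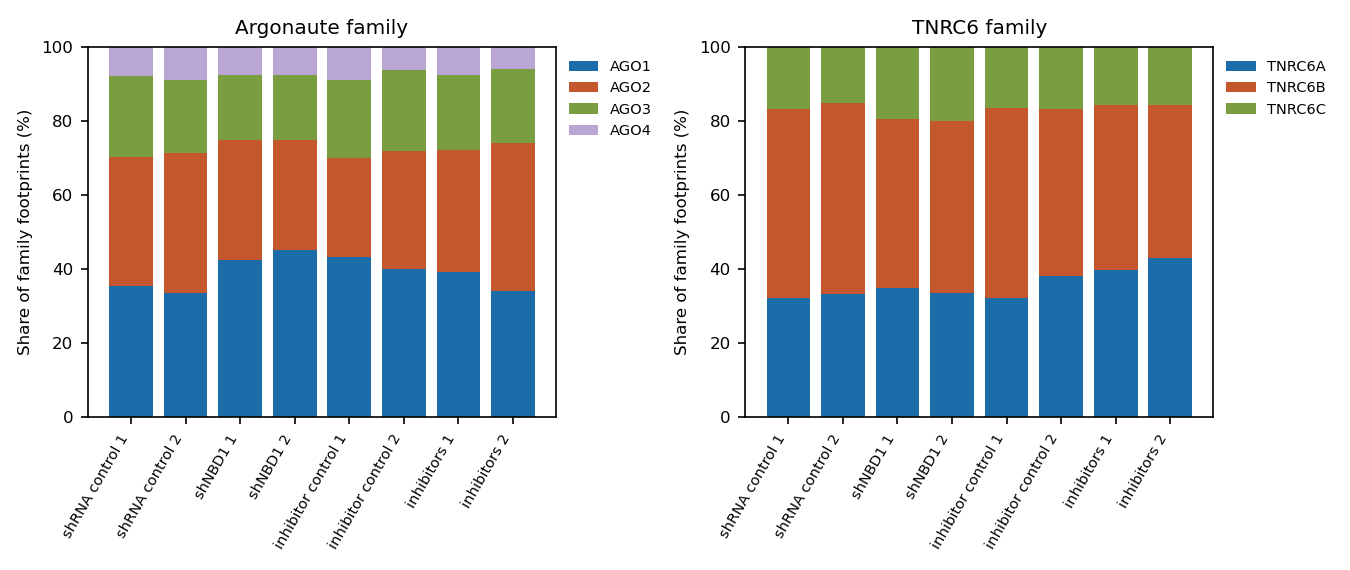
Share of each gene in the footprints of its family (vertical axis, percent of reads) in each of the 8 libraries (bars). Coding lengths are not corrected for, so only changes of a colour between bars can be read. AGO1 takes 42.5% and 45.1% with shNBD1 against 35.5% and 33.6% in the shRNA control, and TNRC6A takes 39.7% and 43.1% with the inhibitors against 32.3% and 38.2%.

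The neighbours of the Argonaute cluster on chromosome 1 did not pass in either treatment comparison. With shNBD1 the nearest tested genes had log2 fold changes of -0.22 ± 0.07 (CLSPN, a replication checkpoint adaptor, edgeR adjusted p = 0.0662), 0.43 ± 0.30 (C1orf216), 0.21 ± 0.08 (ADPRS, which removes ADP-ribose) and -0.04 ± 0.09 (TRAPPC3, of vesicle transport). AGO1 rose with shNBD1 while AGO3, whose start lies just beyond its end, had a value below 0. How reads that match several genes were counted is not given in the sources used here, so the split of reads between paralogs over any near-identical stretch is uncertain.

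For each member the 2 genes of most similar log2 CPM profile over the 8 libraries were found among 10909 genes averaging 50 counts or more per library. Pearson's r was 0.980 for RCN1 and 0.978 for ENDOD1 with AGO1, 0.980 for MRPS5 and 0.971 for HSP90AB1 with AGO2, and 0.990 for SPTY2D1 and 0.987 for DDHD1 with AGO3. It was 0.880 for AVL9 and 0.872 for ALDH1A2 with AGO4, 0.987 for RPL7 and 0.986 for MTMR9 with TNRC6A, 0.989 for ZFY and 0.985 for BMP2K with TNRC6B, and 0.990 for AARSD1 and 0.987 for MYO1D with TNRC6C. HSP90AB1, a cytosolic chaperone, is of the kind that loads small RNAs into Argonaute. All points share the 4 groups and the split between arms, so these values describe the profile only. ZFY has a near-identical copy, ZFX, so reads in the ZFY row may come from ZFX. Its count, and its place beside TNRC6B, are uncertain.

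Of 14 listed genes that make or edit miRNAs upstream of Argonaute, 12 were tested, and 1 rose and 1 fell with shNBD1, where 18.3% of all genes were called in either direction (9.18% higher and 9.15% lower). With shNBD1 LIN28B, which blocks let-7 processing, rose by 1.08 ± 0.13 (edgeR adjusted p = 0.000677) and DDX5, a helicase of the Drosha complex, fell by 0.31 ± 0.07 (0.0149). Their median log2 fold change was -0.12 against 0.00 over all genes. With the inhibitors 0 of 12 passed in edgeR, where 0.12% of all genes were called in either direction and 2183 genes had an unadjusted p under 0.05. The smallest p-values belonged to DICER1, which cuts miRNA precursors, at 0.44 ± 0.08 (edgeR adjusted p = 0.0803) and LIN28B at 0.58 ± 0.12 (0.0934). The shNBD1 effect was below the inhibitor effect for DICER1, by -0.45 ± 0.11 (edgeR adjusted p = 0.0332), and for DDX5, by -0.38 ± 0.10 (0.0485), while 7.44% of all genes were called in either direction in that test.

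Of 25 genes that load, modify or turn over Argonaute, 24 were tested, and with shNBD1 2 rose and 3 fell, against the same 18.3% of all genes called. ANKRD52, a subunit of the phosphatase that acts on Argonaute, rose by 0.81 ± 0.07 (edgeR adjusted p = 6.30e-05) and AJUBA, a LIM protein reported to bind Argonaute, by 1.18 ± 0.29 (0.019). FMR1, an RNA-binding repressor, fell by 0.58 ± 0.10, PTGES3, a co-chaperone of HSP90, by 0.40 ± 0.08 and SND1, a nuclease linked to RISC, by 0.33 ± 0.06 (edgeR adjusted p from 0.00406 to 0.00595). With the inhibitors ANKRD52 rose by 0.71 ± 0.06 (edgeR adjusted p = 0.00493), the smallest p of all genes, and none fell, where 0.0376% of all genes were called higher. The list's median was -0.08 with shNBD1 and 0.12 with the inhibitors.

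Downstream of TNRC6, 27 of 30 listed effectors were tested, and with shNBD1 6 fell and 1 rose, where 9.15% of all genes were called lower and 9.18% higher. CNOT11 and CNOT8, subunits of the deadenylase that TNRC6 recruits, fell by 1.12 ± 0.08 and 0.40 ± 0.12, and DCP2, the decapping enzyme, by 0.98 ± 0.08. PATL1, a decay scaffold, fell by 0.43 ± 0.09 and TOB1, a deadenylation adaptor, by 0.50 ± 0.08, while TOB2, the paralog of TOB1, rose by 0.30 ± 0.08 (edgeR adjusted p of these 6 from 3.82e-05 to 0.0447). The median log2 fold change of the effectors was -0.12 with shNBD1. With the inhibitors 0 of 27 passed in edgeR, beside 0.12% of all genes, and the smallest p-values belonged to DCP2 at 0.24 ± 0.08 (edgeR adjusted p = 0.188) and PAN2, a deadenylase subunit, at -0.34 ± 0.14 (0.284). Their median with the inhibitors was -0.02, beside 0.31 for the 3 TNRC6 genes. The counts called in these 3 lists depended on the libraries: with 1 library left out they ran from 1 to 4, 1 to 7 and 2 to 8 with shNBD1 and from 0 to 2, 0 to 7 and 0 to 1 with the inhibitors, in the order given.

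The PIWI proteins, the germline branch of the Argonaute family, were near the floor. PIWIL1, PIWIL2 and PIWIL3 passed the filter with 2 to 30 reads per library, and PIWIL4 had at most 2. None was called in either treatment comparison.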

How the data were processed

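Ribosome footprints of 293T cells were deposited by the authors as whole-number counts of mapped reads per gene and transcript feature. Cells were lysed in a cycloheximide buffer and libraries made with a modified ribosome profiling kit, per the labels' protocols. Cutadapt and Bowtie with the GRCh38 build are listed per the submitters' processing notes. Their versions, how reads were assigned to features, and what was done with multiply matching reads were not given in the sources used here.

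Features of 1 symbol were summed (17179 symbols). Counts were scaled by TMM, filtered with filterByExpr (minimum count 10, minimum total 15), and tested with edgeR 4.0.16 (R 4.3.3) by the quasi-likelihood test over 4 groups of 2 libraries with 4 residual degrees of freedom, Benjamini-Hochberg adjustment and a threshold of 0.05. DESeq2 1.42.0 was an alternative. SEs are the size of the log2 fold change over the square root of F. P-values and intervals use the residual degrees of freedom plus those that the fit borrows across genes. The fit was tested on simulated data that gave all libraries of a gene the same spread, so the wider spread of the inhibitor arm was not covered.

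The 7 members and all lists were chosen with earlier results of these data known. All members were named; of each pathway list, up to 6 called genes or else the 2 of smallest p; and for each member the 2 genes of most similar profile. Other settings, per-library leave-outs and a replicate block were tried. Protein and coding lengths were not used here, so comparisons per length and of shared protein windows were not made.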

Additional observations from a re-analysis of the deposited data

Results flagged for a closer look

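AGO2 and TNRC6A stood out because they passed a direct test of the difference between the 2 treatment effects in the reported fit. These calls did not hold in every fit tried. For AGO2 the shNBD1 effect minus the inhibitor effect was -0.85 ± 0.18 on the log2 scale (edgeR adjusted p = 0.0205). For TNRC6A it was -0.48 ± 0.12 (edgeR adjusted p = 0.0392). Each treatment was compared with its own control, and the arms also differed in the spread between their replicates and in the levels of their controls, whose part in these differences was not tested.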

How the results depend on the processing

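With 2 libraries a group, the number of calls depended on which libraries entered. With shNBD1, 2440 genes were called; on the 4 libraries of the comparison alone there were 5314, with inhibitor control replicate 1 and inhibitors replicate 2 both left out 5270, and with single libraries left out 532 to 3033, and 0 to 2 members in place of 2. With the inhibitors, 16 genes and 1 member were called; DESeq2 called 118 and 2, no filter on low counts 179 and 2, the 4 libraries alone 0 and 0 (2183 genes had an unadjusted p under 0.05 in the reported edgeR fit), both libraries left out 501 and 5, and single leave-outs 0 to 930 and 0 to 2. For the difference between treatment effects, 990 genes and 2 members were called; DESeq2 called 1 member, both libraries left out gave 3738 and 5, and single leave-outs 187 to 1135 and 0 to 2. Between the controls, 3611 genes and 3 members were called; DESeq2 called 2389 genes, both libraries left out gave 5673, and single leave-outs 1077 to 4319 and 0 to 4. The causes were not tested.

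With the replicate block, 675 genes and 2 members (AGO2 and TNRC6A) were called with the inhibitors, and 1868 genes and 3 members (AGO2, AGO3 and TNRC6A) for the difference. Same-numbered libraries of the inhibitor arm correlated at 0.42 in their deviations and those of the shRNA arm at 0.0152, and nothing in the labels pairs them.

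AGO4 alone changed sign among the members when 1 library was left out. Its log2 fold change with shNBD1 ran from -0.17 to 0.0246 (highest without shRNA control replicate 2), with the inhibitors from -0.0280 (without inhibitor control replicate 2) to 0.54, and between the controls from -0.19 (without inhibitor control replicate 2) to 0.38, with -0.04 without shRNA control replicate 2. None of its values passed in those fits. Its low counts limit its precision. Upper-quartile scaling called 1422 genes higher and 2110 lower between the controls, against 1800 and 1811. Levels and shares per length of coding sequence were not run, since no lengths were used here.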

Other observations

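ANKRD52, a phosphatase subunit, and LIN28B, a blocker of let-7 processing, rose with shNBD1 and were also lower in the shRNA control than in the inhibitor control, by -0.79 ± 0.07 and -0.82 ± 0.13 on the log2 scale (edgeR adjusted p = 5.54e-05 and 0.00193). These genes were chosen after their values were seen, and both comparisons share the shRNA control libraries.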
